A study of Mus musculus with 12 samples.

Results

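The mRNA levels of 8 interferon-stimulated genes, Ifit1, Ifit3, Isg15, Irf7, Stat2, Oasl2, Bst2 and Rsad2, were followed in the left ventricle of 12 mice. The genes were taken by symbol from a table of 18079 genes, each listed by its NCBI Gene ID, and all 8 were found. The study's methods describe the animals as male. C57BL/6 mice were operated on at 8 weeks of age. They received either aortic banding (AB), which narrows the descending aorta and loads the ventricle with pressure, or a Sham operation, and were killed 4 weeks later at 12 weeks of age. Injections into the peritoneum, once a day from the day before surgery onwards, contained the plant flavonoid hispidulin at 20 mg/kg/day or its solvent DMSO alone, so that every mouse received DMSO and an operation. The 4 groups, named DMSO+Sham, DMSO+AB, Hispidulin+Sham and Hispidulin+AB, held 3 mice each, with 1 library per mouse. Values are FPKM, that is, fragments mapped to a gene per kilobase of its transcript, scaled to the total mapped in the library, and the number of reads behind them is unknown.

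Type I interferons are secreted proteins that bind the receptor IFNAR1/IFNAR2 on almost every cell. The kinases JAK1 and TYK2 then phosphorylate STAT proteins such as STAT2, which joins IRF9 in a complex called ISGF3, and ISGF3 binds a DNA element named the interferon-stimulated response element (ISRE). Interferon gamma acts through a separate receptor and at an element named GAS. The genes switched on in this way restrict viruses, and in the heart they have been studied in viral myocarditis, in infarction and in pressure overload. Of the 8 genes, Stat2 encodes the ISGF3 subunit and Irf7 the transcription factor that amplifies interferon production. Isg15 encodes a ubiquitin-like protein that is joined to other proteins. Ifit1 encodes an RNA-binding protein that blocks translation of foreign RNA, Ifit3 a protein of the same family, and Oasl2 a relative of the oligoadenylate synthetases. Rsad2 encodes viperin, an enzyme that makes a chain-terminating nucleotide, and Bst2 tetherin, which holds budding virus at the cell surface.

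The start regions of these genes are shown because ISGF3 acts at an element in the promoters of its target genes. A RefSeq promoter on GRCm38.p6, running from 250 bases before to 50 bases after the transcription start, was at hand for 8 of the 8 genes. The letters GAAANNGAAA, or TTTCNNTTTC when read on the other strand, were found in 6 of them. Those 6 are printed below as the stretch around the match, 5′ to 3′ on the strand of the gene, with each match in capitals, 15 bases on either side, and all bases lying before the start.
Isg15: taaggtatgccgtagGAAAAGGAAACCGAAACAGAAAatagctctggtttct
Stat2: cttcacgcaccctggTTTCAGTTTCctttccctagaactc
Ifit1: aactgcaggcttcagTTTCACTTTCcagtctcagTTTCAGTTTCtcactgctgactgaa
Ifit3: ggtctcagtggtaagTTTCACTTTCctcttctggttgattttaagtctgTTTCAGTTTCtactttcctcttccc
Rsad2: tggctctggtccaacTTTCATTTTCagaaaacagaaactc
Bst2: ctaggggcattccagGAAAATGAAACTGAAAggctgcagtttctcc
The Isg15 stretch is chr4:156200860-156200911 on the minus strand and holds 3 matches that overlap each other, 57 to 78 bases before the start. The Stat2 stretch is chr10:128270261-128270300 on the plus strand, with 1 match 213 to 222 bases before the start. Ifit1 (chr19:34640770-34640828, plus strand) and Ifit3 (chr19:34583358-34583431, plus strand) each hold 2 separate matches, and both genes have the same pair of letters in them, TTTCACTTTC followed by TTTCAGTTTC. The Rsad2 stretch is chr12:26456548-26456587 on the minus strand, with 1 match 111 to 120 bases before the start. The Bst2 stretch is chr8:71537572-71537617 on the minus strand, with 2 overlapping matches 115 to 130 bases before the start. Bases just after the start were found in GENCODE transcripts of the other genes, but not in those of Stat2 and Bst2. The distances for these 2 genes are therefore less sure. No match lay in the promoter windows of Irf7 and Oasl2, which says only that these letters are not in those windows.

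Across all 32851 mouse promoters of the same length, 3.44% held GAAANNGAAA on either strand, as did 3.68% of the 9319 promoters of genes tested here. Of the 70 promoters of other interferon pathway genes tested, 26 (37.1%) held it. The GAS-type letters TTCNNNGAA, which read the same on both strands, were found in 1 of the 8 genes, Bst2, in 21 of the 70 other pathway promoters (30%), in 8.11% of those of genes tested and in 8.3% of all promoters. These are matches of letters, not measured binding.

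Of the 12 mice, 2 stood apart from the rest in all 8 genes. The levels were highest in DMSO+Sham 3, a mouse with no banding and no hispidulin, and second highest in Hispidulin+AB 3, in 8 of 8 genes. The same order was seen in 271 of the 11664 genes tested (2.32%). Among the other 10 mice the highest level was 1.35-fold (Stat2) to 3.06-fold (Ifit1) the lowest.

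Among the signalling members, Stat2 had the smallest range. Its level was 4.26, 5.20 and 19.55 FPKM in DMSO+Sham 1, 2 and 3, 4.68, 4.82 and 5.76 in Hispidulin+Sham, 4.31, 5.77 and 5.34 in DMSO+AB, and 5.40, 5.25 and 12.64 in Hispidulin+AB. The other 10 mice lay between 4.26 and 5.77 FPKM, a 1.35-fold range, and DMSO+Sham 3 stood 3.39-fold above the highest of them. Irf7 was the member furthest above its median in DMSO+Sham 3. It measured 7.69, 6.13 and 130.63 FPKM in DMSO+Sham, 8.20, 6.56 and 7.76 in Hispidulin+Sham, 5.39, 8.93 and 9.73 in DMSO+AB, and 8.23, 8.64 and 40.27 in Hispidulin+AB. DMSO+Sham 3 was 15.9-fold and Hispidulin+AB 3 was 4.9-fold above the median of the 12 mice, whereas the other 10 differed among themselves by at most 1.8-fold. In bulk tissue a higher level can come from more cells that express the gene or from more RNA per cell, and these cannot be told apart.

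Isg15 followed the same order. Its level was 4.07, 5.25 and 57.08 FPKM in DMSO+Sham, 2.84, 3.35 and 5.55 in Hispidulin+Sham, 2.76, 8.23 and 6.99 in DMSO+AB, and 3.45, 6.08 and 25.51 in Hispidulin+AB. DMSO+Sham 3 stood 10.6-fold and Hispidulin+AB 3 4.72-fold above the median, and the highest of the remaining mice was DMSO+AB 2.

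The effectors Ifit1 and Ifit3 were the members furthest above the median in Hispidulin+AB 3. Ifit1 was at 2.14, 2.10 and 26.55 FPKM in DMSO+Sham, 1.64, 1.87 and 1.91 in Hispidulin+Sham, 1.04, 3.18 and 1.68 in DMSO+AB, and 1.59, 2.03 and 11.39 in Hispidulin+AB. Ifit3 was at 6.10, 5.73 and 85.42 FPKM in DMSO+Sham, 4.28, 5.82 and 7.76 in Hispidulin+Sham, 4.91, 11.23 and 5.74 in DMSO+AB, and 5.38, 7.33 and 33.25 in Hispidulin+AB. The level in Hispidulin+AB 3 was 5.78-fold above the median for Ifit1 and 5.58-fold for Ifit3, and that in DMSO+Sham 3 was 13.5-fold and 14.3-fold. Ifit3 is uncertain as a single gene, because 51.2% of the 50-base stretches of its longest GENCODE transcript also occur in its neighbour Ifit3b and reads of 50 bases could be split between them. For Ifit1 that share was 7.13%, for Isg15 3.96%, and for the other 5 genes 0%.

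Oasl2, Rsad2 and Bst2 differed in how far the 2 mice stood out. Oasl2 was at 4.8, 4.9 and 47.08 FPKM in DMSO+Sham, 3.94, 3.76 and 6.50 in Hispidulin+Sham, 4.52, 8.91 and 8.14 in DMSO+AB, and 5, 5.89 and 27.04 in Hispidulin+AB. Rsad2 was at 9.42, 6.08 and 40.89 FPKM in DMSO+Sham, 7.78, 7.43 and 13.98 in Hispidulin+Sham, 7.17, 10.51 and 8.18 in DMSO+AB, and 7.22, 9.75 and 22.24 in Hispidulin+AB. Bst2 was at 24.86, 27.27 and 158.19 FPKM in DMSO+Sham, 19.53, 17.71 and 22.57 in Hispidulin+Sham, 21.94, 35.18 and 28.15 in DMSO+AB, and 21.19, 25.87 and 54.33 in Hispidulin+AB. Bst2 had the highest FPKM of the 8 in each of the 12 mice. It was also the member in which Hispidulin+AB 3 stood out least, 1.54-fold above the next mouse, while Oasl2 was 3.04-fold and Rsad2 1.59-fold above it.

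**Figure D1:**
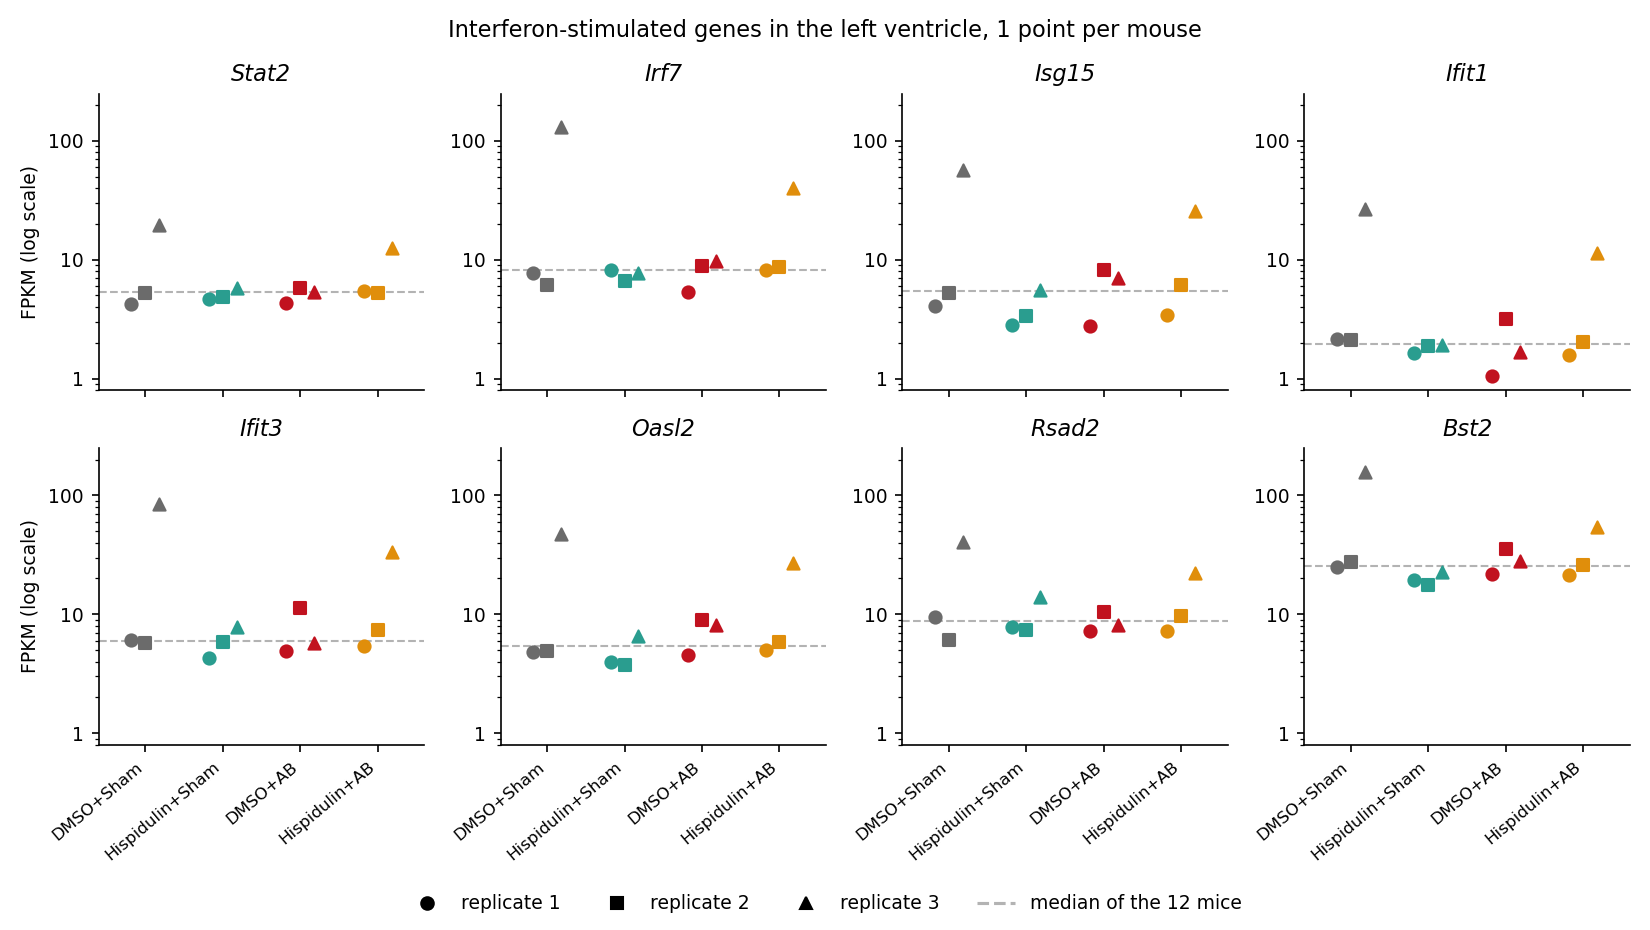
FPKM of the 8 genes (y axis, log scale) in each of the 12 mice, grouped by treatment (x axis), with the symbol giving the replicate number and the dashed line the median of the 12 mice. The third DMSO+Sham mouse is the highest and the third Hispidulin+AB mouse the second highest point in 8 of 8 panels.

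DMSO+Sham 3 was at least 2-fold above the median of the 12 mice for 8 of 8 genes and for 3.86% of all genes tested. For Hispidulin+AB 3 it was again 8 of 8, against 1.5% of all genes tested. No member reached that distance in any of the other 10 mice. On the log2(FPKM + 1) scale, the mean of the 8 genes was 5.85 in DMSO+Sham 3 and 4.72 in Hispidulin+AB 3, and ran from 2.58 in DMSO+AB 1 to 3.37 in DMSO+AB 2 in the rest. DMSO+AB 2 came next in 6 of 8 genes, the exceptions being Irf7, where DMSO+AB 3 did, and Rsad2, where Hispidulin+Sham 3 did.

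The 8 genes varied together from mouse to mouse. Over the 12 mice, Pearson's r of the log2 values of the 28 pairs of genes ran from 0.904 to 0.989, with a median of 0.964, a value that the 2 high mice dominate. Over the other 10 mice it ran from 0.256 to 0.908, with a median of 0.612, and was above 0 for 28 of 28 pairs. Pairs of other genes were not examined in this way, so how unusual these values are is not known. These points share the libraries and their scaling, and no test was attached to them.

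Group averages followed the 2 high mice. By mean FPKM, 7 of 8 genes had the order DMSO+Sham, Hispidulin+AB, DMSO+AB, Hispidulin+Sham from high to low, and in Rsad2 the last 2 groups changed places. By the median of the 3 mice, the 8 genes showed 7 different orders. The mean of Irf7, for example, was 48.2 ± 71.4 FPKM in DMSO+Sham, 19.1 ± 18.4 in Hispidulin+AB, 8.02 ± 2.31 in DMSO+AB and 7.51 ± 0.849 in Hispidulin+Sham (SD, n = 3), whereas its medians were 7.69, 8.64, 8.93 and 7.76. Neighbouring groups in the order by mean overlapped in their mice in 24 of 24 pairs over the 8 genes. This count was not made for other genes, so whether it sets the 8 genes apart is not known. Overlap was common among all genes tested. Only 5.6% had none between Hispidulin+Sham and DMSO+Sham, and 20.9% had none between Hispidulin+AB and Hispidulin+Sham.

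Whether pressure overload altered the genes in solvent-treated hearts was asked by comparing DMSO+AB with DMSO+Sham. The 8 genes had a median log2 fold change of -0.83, from -1.19 in Irf7 to -0.52 in Stat2, beside -0.035 over all genes tested. Their standard errors were 0.43 to 0.90, and 0 of 8 passed an adjusted p of 0.05 (limma with Benjamini-Hochberg adjustment over 11664 genes, smallest adjusted p = 0.417 for Ifit1), while 608 genes (5.21%) did. The mice of the groups overlapped in 8 of 8 genes, where 17.9% of all genes tested showed no overlap. Without DMSO+Sham 3 the median was 0.15, and 7 of 8 genes took the other sign, Ifit1 being the exception.

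The same question in hispidulin-treated hearts gave values of the opposite sign. Hispidulin+AB against Hispidulin+Sham had a median log2 fold change of 0.78, from 0.30 in Rsad2 to 0.98 in Isg15, beside -0.020 over all genes. Again 0 of 8 genes passed (limma, smallest adjusted p = 0.883 for Oasl2), as did 0 of 11664 genes (0%). At an unadjusted p under 0.05 these counts were 0 and 847. With the replicate number as a block, 17 genes passed, none of them a member. Of the 8 genes, Irf7 alone had no overlap between the groups, at 8.23 to 40.27 against 6.56 to 8.20 FPKM, where 20.9% of all genes tested had none. Between equally numbered mice, 6 of 8 genes (Ifit3, Isg15, Irf7, Stat2, Oasl2 and Bst2) were higher in Hispidulin+AB in 3 of 3 pairs, as were 17.5% of all genes tested. The 8 genes vary together, so these are not separate observations. Without Hispidulin+AB 3 the median was 0.13.

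Hispidulin was compared with DMSO within banded hearts. Hispidulin+AB against DMSO+AB had a median log2 fold change of 0.48, from 0.15 in Bst2 to 0.81 in Irf7, beside 0.0047 over all genes. The mice overlapped in 8 of 8 genes, with 7.88% of all genes showing no overlap. By limma, 0 of 8 and 0 of 11664 genes (0%) passed, with 0 and 362 at an unadjusted p under 0.05 and a smallest adjusted p of 0.996 for the members. Without Hispidulin+AB 3 the median was -0.064.

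Under Sham surgery, Hispidulin+Sham against DMSO+Sham gave the largest median difference of the 4 comparisons. The median log2 fold change was -1.21, from -1.36 in Isg15 to -0.49 in Rsad2, beside -0.0072 over all genes. Ifit1 and Bst2 had no overlap between the groups, Ifit1 with 1.64 to 1.91 against 2.10 to 26.55 FPKM and Bst2 with 17.71 to 22.57 against 24.86 to 158.19, where 5.6% of all genes tested had none. Between equally numbered mice, Ifit1, Isg15, Oasl2 and Bst2 (4 of 8) were lower in Hispidulin+Sham in 3 of 3 pairs, as were 12.3% of all genes tested. By limma, 0 of 8 and 0 of 11664 genes (0%) passed, with 0 and 287 at an unadjusted p under 0.05. Bst2 came nearest, with a log2 fold change of -1.23 ± 0.57 (SE) and an adjusted p that rounds to 1. Without DMSO+Sham 3 the median was -0.042.

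Averaging over the other factor did not bring a member past the threshold either. AB against Sham, averaged over DMSO and hispidulin, had a median of -0.080 for the 8 genes, with 2 higher and 6 lower and 0 of 8 called, against 862 of 11664 genes (7.39%). Without DMSO+Sham 3 this median was 0.44, and without Hispidulin+AB 3 it was -0.36. Hispidulin against DMSO, averaged over both operations, had a median of -0.28 with 0 of 8 called (0% of all genes, 347 at an unadjusted p under 0.05). That median was 0.26 without DMSO+Sham 3 and -0.64 without Hispidulin+AB 3. The interaction, that is, the AB difference under hispidulin minus that under DMSO, was positive for 8 of 8 genes with a median of 1.67, from 0.91 in Rsad2 to 2.06 in Irf7, beside 0.019 over all genes. By limma, 0 of 8 genes passed (0% of all genes, 289 at an unadjusted p under 0.05), and the smallest p of a member was 0.104 before and 1 after adjustment. The median interaction was 0.59 without DMSO+Sham 3, 1.06 without Hispidulin+AB 3 and 0.61 with library weights, which count mice that deviate from their group less. The 4 comparisons share control groups, and DMSO+Sham 3 enters with opposite sign in the first and in the interaction.

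With both high mice left out, a step chosen after their values were seen, the medians of the 8 genes were 0.15 for DMSO+AB against DMSO+Sham, 0.13 for Hispidulin+AB against Hispidulin+Sham, -0.064 for Hispidulin+AB against DMSO+AB, -0.042 for Hispidulin+Sham against DMSO+Sham and -0.022 for the interaction. The standard errors of the 4 comparisons were then between 0.15 and 0.37. The largest single value was 0.44 ± 0.26 (SE) for Oasl2 in DMSO+AB against DMSO+Sham, with an adjusted p of 0.412, and 0 of 8 genes passed in any comparison. Bst2 was lower under hispidulin averaged over both operations, at -0.31 ± 0.13 (SE), with an adjusted p that rounds to 1.

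**Figure D2:**
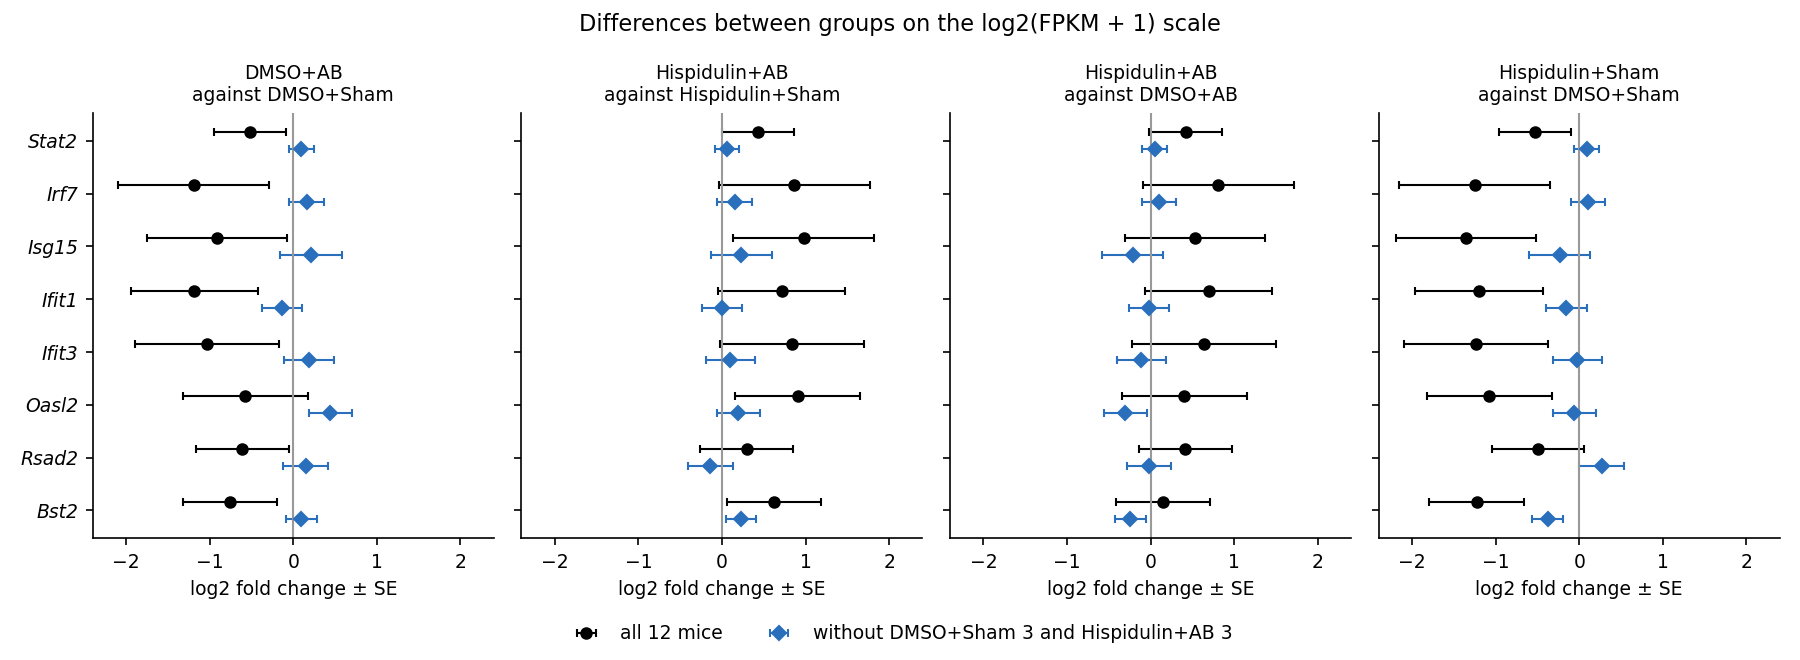
Log2 fold change of each gene on the log2(FPKM + 1) scale (x axis, bars are ± 1 SE from limma) in the 4 comparisons, with all 12 mice (black circles) and without the third DMSO+Sham and the third Hispidulin+AB mouse (blue diamonds). With all mice, 8 of 8 genes lie below 0 in the first and last panels and above 0 in the others, and without the 2 mice the medians lie between -0.064 and 0.15.

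The mice carry animal numbers in the table, most of them in the 5000s or 6000s, and what the series marks is not stated. Within the 6000s, which hold DMSO+Sham 3, the median difference of the 8 genes between DMSO+AB (2 mice) and DMSO+Sham (1 mouse) was -2.97, whereas in the 5000s, with 1 mouse each, it was 0.20. Hispidulin+AB 3 belongs to the 5000s, where the difference from DMSO+AB was 1.67 (1 mouse each), and in the 6000s it was -0.065 (2 mice each). The difference between Hispidulin+AB and Hispidulin+Sham was 2.24 in the 5000s and -0.16 in the 6000s. That between Hispidulin+Sham and DMSO+Sham was -0.17 in the 5000s and -2.95 in the 6000s. These differences rest on arms of 1 or 2 mice and were not tested within a series, and the 2 high mice belonged to different series.

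The rest of the interferon pathway was examined with a list of 121 other genes grouped by role, of which 106 were in the table and 95 were tested. The ligands themselves were hardly seen. Of 12 interferon genes listed, 2 were in the table, Ifna1 at 0.15 FPKM in Hispidulin+Sham 2 only and Ifng at 0.07 in DMSO+Sham 1 only, and both were listed at 0 in DMSO+Sham 3 and Hispidulin+AB 3. The other 10 were not analysed here.

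Receptors and signal transducers were the group that stood out least in the 2 mice. The median of the 10 tested was 1.08-fold over the median of the 12 mice in DMSO+Sham 3 and 1.03-fold in Hispidulin+AB 3. The kinase Jak1 was at 44.4 and 40.9 FPKM, within the 29.2 to 48.7 of the others, and Jak2 at 10.2 and 9.13, 1.30-fold and 1.17-fold over its median. The interferon gamma receptor chain Ifngr1 was likewise at 46.3 and 42.9 FPKM, within the 33.9 to 55.9 of the others. Ifngr2, the second chain, was at 59.9 FPKM in DMSO+Sham 3, below the 101 to 140 of the others, and at 111 in Hispidulin+AB 3. Il10rb, a chain shared by the interferon lambda and interleukin 10 receptors, was at 80.5 and 88.2 FPKM beside 80.2 to 109.

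Sensors and adaptors were split. Of 10 tested, 4 were 2-fold above the median in DMSO+Sham 3 and 3 in Hispidulin+AB 3. Zbp1, a sensor of left-handed nucleic acid, was at 26.9 and 6.79 FPKM there and at 0.32 to 2.06 elsewhere, 25.9-fold over the median in DMSO+Sham 3. The cytoplasmic RNA sensors Ifih1 (9.82 and 6.33 beside 1.56 to 3.63 FPKM) and Dhx58 (6.44 and 3.71 beside 0.62 to 1.5 FPKM) stood out as well. Mavs, the adaptor of Ifih1 on mitochondria, was at 31.1 and 25.0 FPKM beside 25.1 to 33.3, and the kinase Tbk1 at 11.3 and 8.56 beside 6.23 to 8.37. Its relative Ikbke, too low in most mice to be tested, was at 4.89 FPKM in DMSO+Sham 3, 9.68-fold over the median, and at 0.36 in Hispidulin+AB 3, beside 0.32 to 0.89. Myd88, the adaptor of Toll-like receptors, was at 19.2 and 10.4 FPKM beside 7.25 to 10.02.

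Among the 9 transcription factors tested, 5 were 2-fold above the median in DMSO+Sham 3 and 2 in Hispidulin+AB 3. Irf9, the DNA-binding subunit of ISGF3, was at 38.1 and 17.2 FPKM beside 8.17 to 11.9. Nlrc5, which drives MHC class I genes, was at 3.96 and 1.97 beside 0.54 to 1.02 FPKM, Sp100 at 32.2 and 26.4 beside 9.06 to 15.6, and Batf2 at 2.81 and 1.19 beside 0.32 to 1.38. Irf3, which is activated by phosphorylation rather than by induction, was at 20.6 and 16 FPKM beside 17.1 to 20.8. Irf1 was at 16.5 and 17.5 beside 10.9 to 15.4 FPKM.

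The ISG15 system, which attaches ISG15 to proteins and removes it, stood out as a whole in DMSO+Sham 3. There 4 of 4 genes were at least 2-fold above the median, and 2 of 4 in Hispidulin+AB 3. The protease and receptor inhibitor Usp18 was at 21.3 and 15.3 FPKM beside 1.66 to 2.73 in the other 10 mice, and the ligase Herc6 at 5.51 and 3.40 beside 0.49 to 1.29. The activating enzyme Uba7 was at 21.4 and 10.3 FPKM beside 4.34 to 7.76, and the conjugating enzyme Ube2l6 at 27.9 and 17.1 beside 8.62 to 18.4.

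Of the 41 antiviral effectors tested, 35 were 2-fold above the median in DMSO+Sham 3 and 20 in Hispidulin+AB 3. Ifit2 was at 20.5 and 17.9 FPKM beside 3.10 to 6.31, and Ifit3b at 31.1 and 8.09 beside 1.07 to 3.00. Oas2 went against the usual order, with 20.1 FPKM in DMSO+Sham 3, 31.8 in Hispidulin+AB 3 and 3.04 to 6.83 elsewhere. Among the abundant membrane proteins, Ifitm3 was at 656 and 213 FPKM beside 112 to 177, and Ly6e at 280.1 and 169 beside 103 to 151. Ifitm2 was at 249 and 138 FPKM beside 104 to 174.

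Ifitm1, which belongs to the same family of membrane proteins, was the 1 pathway gene that passed the test in any comparison. It measured 9.38, 5.12 and 12.78 FPKM in DMSO+Sham, 6.43, 6.08 and 5.34 in Hispidulin+Sham, 3.38, 3.69 and 2.61 in DMSO+AB, and 7, 5.34 and 4.10 in Hispidulin+AB. Each DMSO+AB mouse was below each DMSO+Sham mouse. Ifitm1 fell in DMSO+AB against DMSO+Sham, with a log2 fold change of -1.19 ± 0.25 (SE) and an adjusted p of 0.0237 by limma. The value was -0.92 without DMSO+Sham 3 (adjusted p = 0.0474). The call was lost without DMSO+Sham 1 (adjusted p = 0.0913), DMSO+AB 2 (0.0695) or DMSO+AB 3 (0.0835), and without both high mice (0.0518). Averaged over DMSO and hispidulin the value was -0.65 (adjusted p = 0.047). That call was lost on leaving out any 1 of 11 mice (adjusted p 0.0528 to 0.121) and held without DMSO+Sham 2 (0.00452). With the replicate number as a block its adjusted p was 0.0601. Its level did not follow that of the 8 genes, since Hispidulin+AB 3 was below the median of the 12 mice.

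The guanylate-binding proteins and immunity-related GTPases, which attack the membranes around intracellular parasites, are induced above all by interferon gamma. Of 14 tested, 14 were 2-fold above the median in DMSO+Sham 3 and 9 in Hispidulin+AB 3. Gbp6 was at 109.6 and 28.4 FPKM beside 9.65 to 26.0 in the others, Iigp1 at 86.8 and 22.4 beside 5.42 to 19.4, and Irgm1 at 49.7 and 20.8 beside 8.03 to 13.6. Gbp3 was at 25.5 and 16.1 FPKM beside 2.45 to 5.82. Gbp10 was at 4.63 and 0.84 FPKM beside 0.10 to 2.81, so that Hispidulin+AB 3 lay within the range of the others.

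Negative regulators showed the pattern in DMSO+Sham 3 for 4 of 7 genes and in Hispidulin+AB 3 for 1 of 7. The nucleotide hydrolase Samhd1 was at 27.1 and 15.3 FPKM beside 9.41 to 12.0, and the DNA exonuclease Trex1 at 23.9 and 15.04 beside 11.7 to 16.2. The phosphatases Ptpn6 (10.6 and 3.78 beside 1.66 to 4.11 FPKM) and Ptpn2 (14.3 and 9.58 beside 5.74 to 11.5 FPKM) were above the range of the other 10 mice in DMSO+Sham 3 and within it in Hispidulin+AB 3. The same held for the cytokine signalling inhibitor Socs1, at 1.88 and 0.72 FPKM beside 0.41 to 1.63. Its relative Socs3, the 1 gene of this group 2-fold above the median in both mice, was at 11.1 and 10.1 FPKM but ran from 1.87 to 15.96 in the others.

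Over the 95 pathway genes tested outside the 8, 67 were 2-fold above the median in DMSO+Sham 3, 38 in Hispidulin+AB 3 and 37 in both, beside 450, 175 and 90 of all 11664 genes. DMSO+Sham 3 was the highest and Hispidulin+AB 3 the second highest mouse in 59 of the 95. In DMSO+AB against DMSO+Sham the median log2 fold change of the 95 was -0.43, in Hispidulin+AB against Hispidulin+Sham 0.26, in Hispidulin+AB against DMSO+AB 0.24 and in Hispidulin+Sham against DMSO+Sham -0.43, with 0 genes called upwards in any of them and 1 of 95, Ifitm1, called downwards in the first, where 5.21% of all genes tested were called in either direction.

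**Figure D3:**
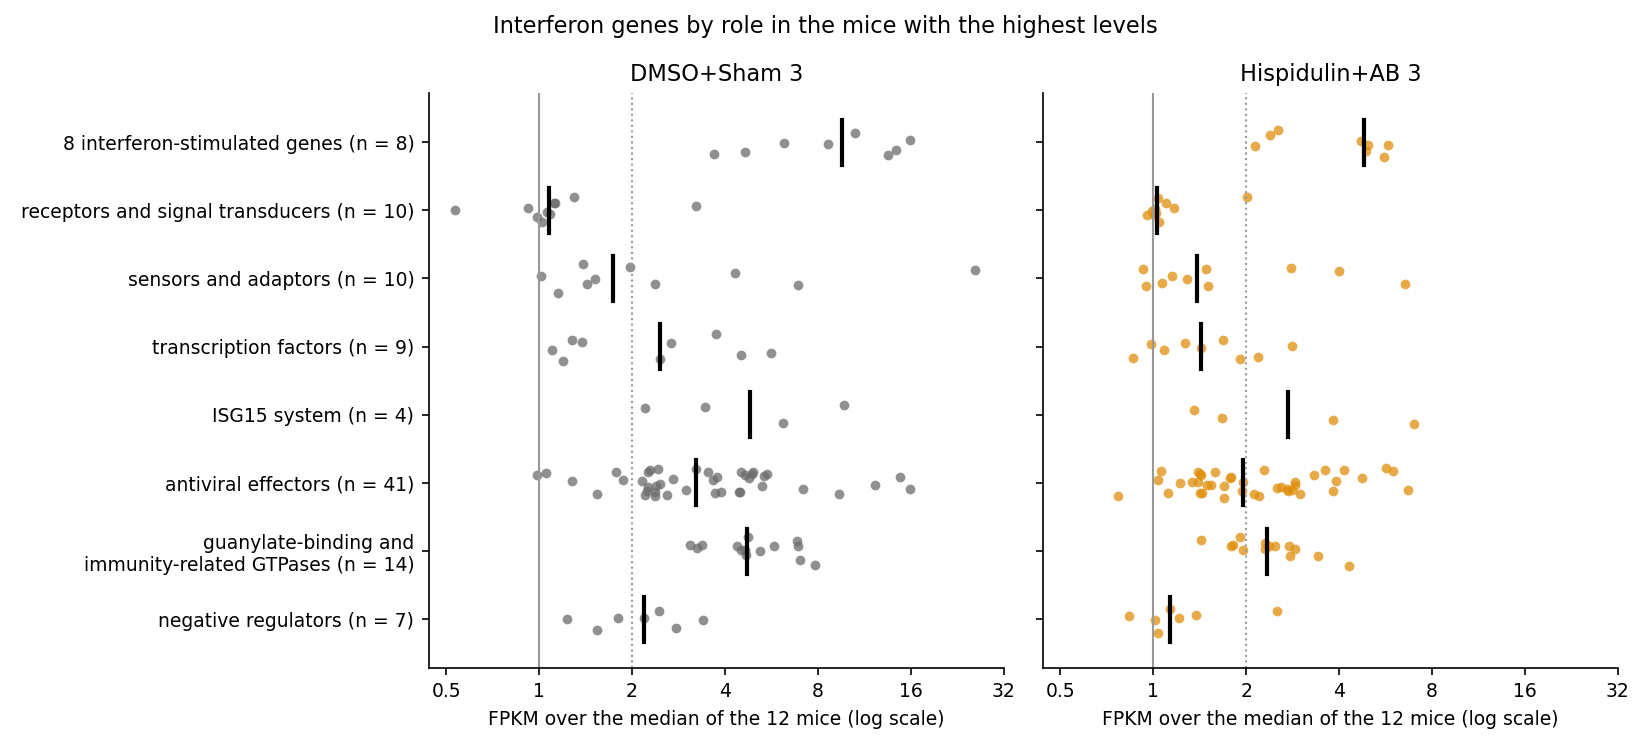
FPKM of each gene divided by its median over the 12 mice (x axis, log scale) in the third DMSO+Sham and the third Hispidulin+AB mouse, with genes grouped by role (y axis); points are genes, black bars are medians, and the dotted line marks 2-fold. Receptors and signal transducers have medians of 1.08 and 1.03, and the 8 interferon-stimulated genes 9.61 and 4.81.

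The genes whose log2 values followed the mean of the 8 most closely over the 12 mice were Ifi44 (r = 0.992), Oasl1 (0.987), Zbp1 (0.986), Oas1a (0.986), Rtp4 (0.983), Parp9 (0.980), Dhx58 (0.980), Lgals3bp (0.979), Sp110 (0.978) and Irf9 (0.978). Of these 10 genes, 9 were on the pathway list, the exception being Sp110. Over the 10 mice without the 2 high ones their r ran from 0.720 for Oasl1 to 0.906 for Ifi44. Among tested genes outside the 8, Ifi44 ranked 10 by this r, Irf9 28, Rtp4 37, Zbp1 98 and Sp110 103. Parp9, Oas1a, Lgals3bp, Dhx58 and Oasl1 ranked 372 to 491, so many other genes followed the mean more closely there. Ifi44 measured 19.2 FPKM in DMSO+Sham 3 and 10.5 in Hispidulin+AB 3, beside 1.01 to 2.39 in the rest.

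Markers of the cells in the samples were read beside these levels. The 5 cardiomyocyte markers summed to 22440 to 28960 FPKM per library, and DMSO+Sham 3 (22510) and Hispidulin+AB 3 (25750) lay within that range. Of these, Myl2 was lowest of the 12 mice in DMSO+Sham 3, at 11178 FPKM beside 12720 to 16920 in the other 10. Ryr2 was second highest there, at 94.4 FPKM, and Tnnt2, Myh6 and Actn2 ranked 8, 9 and 10 from the top. Atrial genes were not absent from the ventricular samples, since Myl7 ranged from 0.24 to 333 FPKM and was highest in Hispidulin+Sham 3. Its level was 5.50 FPKM in DMSO+Sham 3 and 42.3 in Hispidulin+AB 3. The 4 endothelial genes summed to 207.9 FPKM in DMSO+Sham 3 and 247.5 in Hispidulin+AB 3 beside 195.6 to 241.5. Cdh5, Kdr and Tie1 were each lowest of the 12 mice in DMSO+Sham 3. The remaining one, Pecam1, was second highest there, at 93.5 FPKM beside 66.2 to 97.4 in the other 10. The 4 fibroblast genes summed to 372.7 and 344.4 FPKM beside 288.3 to 560.9, with Col1a1 and Tcf21 lowest in DMSO+Sham 3. Dcn ranked 3 of the 12 mice there, at 354.5 FPKM, and Pdgfra ranked 10. The 3 erythroid genes summed to 2162 and 1690 FPKM beside 2027 to 7574.

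Immune cell markers differed among themselves in DMSO+Sham 3. The leukocyte gene Ptprc was at 3.79 FPKM there, at 2.05 in Hispidulin+AB 3 and at 0.51 to 2.23 in the others. The macrophage genes summed to 157 FPKM in DMSO+Sham 3, to 109 in Hispidulin+AB 3 and to 72.0 to 137 in the others, and of the 5 genes Adgre1 (11.1 FPKM beside at most 5.65) and C1qa (123 beside at most 107) were highest in DMSO+Sham 3, while Csf1r and Cx3cr1 were not. The remaining one, Cd68, was highest in Hispidulin+AB 3 (9.75 FPKM) and next in DMSO+Sham 3 (8.48 FPKM), beside 5.08 to 8.09 in the others. The 3 neutrophil genes summed to 58.6 FPKM in DMSO+Sham 3 beside 1.06 to 33.1 in the others, and to 20.1 in Hispidulin+AB 3. Siglech, which marks the plasmacytoid dendritic cells known for secreting interferon, was at 0.11 FPKM or less in each mouse, and the 4 lymphocyte genes summed to 0.31 FPKM in DMSO+Sham 3 and 1.45 in Hispidulin+AB 3 beside 0.34 to 0.95. The part of these cells in the levels of the 8 genes was not tested.

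**Figure D4:**
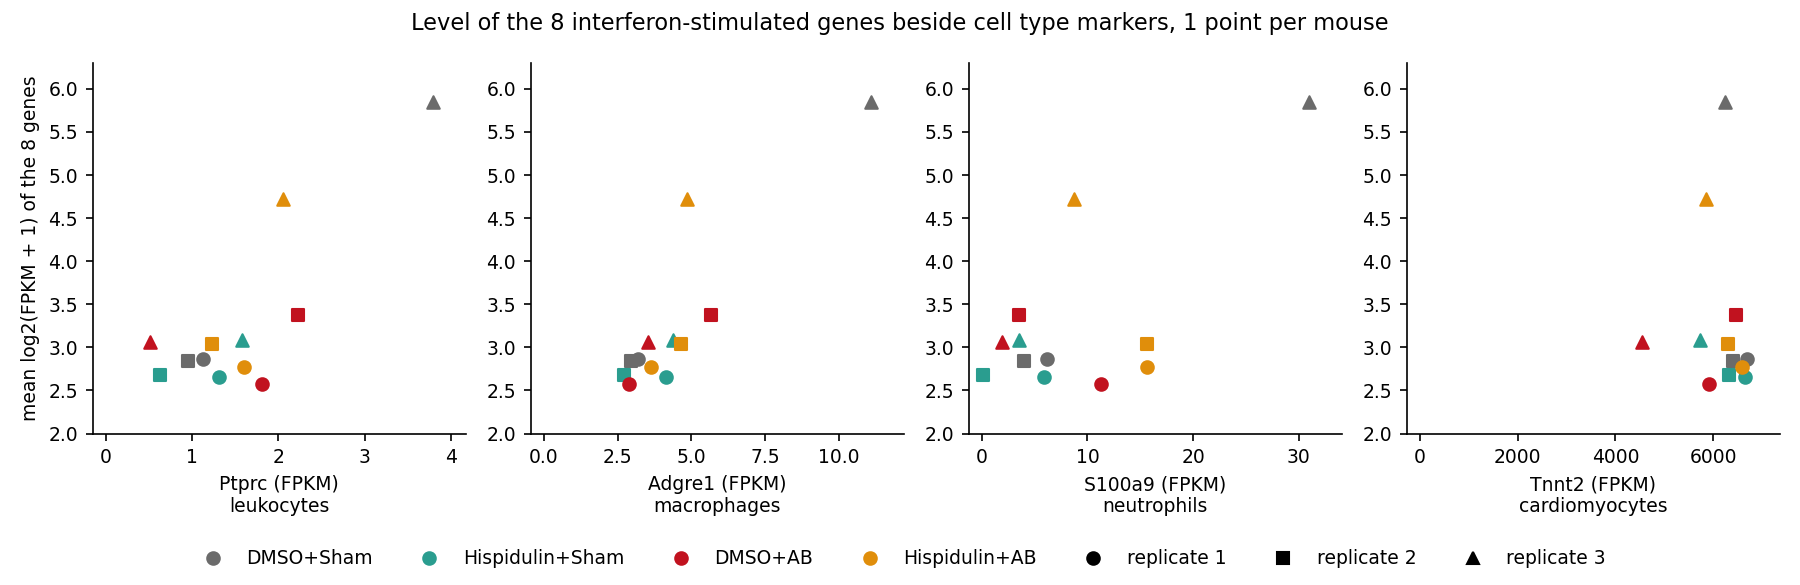
Mean log2(FPKM + 1) of the 8 genes (y axis) against the FPKM of 4 cell type markers (x axes, linear) in the 12 mice, with colour giving the group and symbol the replicate number. The third DMSO+Sham mouse is the highest for Ptprc (3.79), Adgre1 (11.1) and S100a9 (31.0), whereas the third Hispidulin+AB mouse lies within the range of the others for these and for Tnnt2.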

How the data were processed

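Poly(A) RNA of 12 left ventricles, 3 per group, was read as single-end 50 base reads on a BGISEQ-500. The authors deposited 1 table of FPKM per gene, rounded to 0.01, and no counts were used here. The submitters' processing notes name HISAT2 2.0.4, Bowtie2 2.2.5, RSEM 1.2.12 and DESeq2 1.4.5. The genome build and annotation are not given in the sources used here. FPKM are relative within a library, so a rise of abundant genes lowers the others. The FPKM sums were 535235 to 567027, the depth is unknown, and no counting error can be given.

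Symbols were found for 17947 of 18079 genes (99.3%). Groups came from the sample titles. The 11664 genes that reached 1 FPKM in 3 or more mice were tested as log2(FPKM + 1) with limma 3.58.1 in R 4.3.3, with 1 mean per group over all mice, 8 error degrees of freedom, eBayes with trend, two-sided tests and Benjamini-Hochberg adjustment over all tested genes, at 0.05. A fold change on this scale understates that of low genes. The code was tested on simulated data. The 8 genes, the pathway and marker lists and the rule for named genes (the 8, pathway genes past the threshold, the most abundant and most changed of each role, and the 10 closest by r) were chosen with earlier results of these data known. Residuals of equally numbered mice correlated above 0.1 in 3 of 3 pairs of Hispidulin+AB with Hispidulin+Sham (0.147 to 0.228) and of Hispidulin+Sham with DMSO+Sham (0.126 to 0.330), not in the other comparisons. By this rule the replicate number was treated as pairing the mice there. The study's methods describe random assignment and no pairing of mice. The 3 correlations of a comparison share group means, so they are not independent, and whether the mice were paired is not known. Alternatives changed the added constant, filter, scaling, weights, trend, mice fitted, covariates and single mice. The values of 1 pathway gene are not reported here. Promoters were searched in the RefSeq table on GRCm38.p6, and shared sequence in GENCODE transcripts.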

Additional observations from a re-analysis of the deposited data

How the results depend on the processing

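No setting brought any of the 8 genes past the threshold. The number called was 0 in each of 127 recomputed counts, and the lowest adjusted p of a member in the 4 comparisons of groups was 0.22 (limma). Of 508 recomputed fold changes, 42 took the other sign, all under library weights, without DMSO+AB 1 or without 1 or both of the high mice. With a replicate block, 0 of 8 genes were called in each comparison, 17 of all genes instead of 0 were called in Hispidulin+AB against Hispidulin+Sham, no other count of calls moved by more than 1.5 times, and the call of Ifitm1 averaged over DMSO and hispidulin was lost. That call was also lost with no filter (adjusted p = 0.087) and with median-of-ratios scaling (0.0518). The call of Ifitm1 in DMSO+AB against DMSO+Sham was lost with no filter (0.0512), with a term for the number series (0.0514) and when only the mice compared were fitted (0.152).

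Leaving out 1 mouse at a time gave the following log2 ranges. DMSO+AB against DMSO+Sham ran from -1.65 to 0.19 for Ifit3, -1.55 to 0.21 for Isg15, -1.94 to 0.16 for Irf7, -0.89 to 0.10 for Stat2, -1.09 to 0.44 for Oasl2, -1.21 to 0.10 for Bst2 and -1.13 to 0.15 for Rsad2. Hispidulin+Sham against DMSO+Sham ran from -1.996 to 0.11 for Irf7, -0.90 to 0.088 for Stat2 and -1.01 to 0.27 for Rsad2. Hispidulin+AB against DMSO+AB ran from -0.24 to 0.41 for Bst2, -0.019 to 1.11 for Ifit1, -0.11 to 1.10 for Ifit3, -0.22 to 1.071 for Isg15, -0.30 to 0.81 for Oasl2 and -0.019 to 0.73 for Rsad2. Hispidulin+AB against Hispidulin+Sham ran from -0.0014 to 1.13 for Ifit1 and -0.14 to 0.61 for Rsad2. Without both high mice, each of these genes took the end of its range that has the other sign. Library weights, which give such mice less say, gave 0.010 for Ifit3, 0.092 for Isg15, 0.035 for Stat2 and 0.22 for Oasl2 in DMSO+AB against DMSO+Sham, and -0.058 for Bst2 in Hispidulin+AB against DMSO+AB.

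The count over all genes depended more on the setting. DMSO+AB against DMSO+Sham had 608 calls, but 383 with no filter, 1423 with library weights, 142 with a term for the number series, 11 when only the mice compared were fitted, 299 without both high mice, and 91 to 1050 with 1 mouse left out. AB against Sham, averaged, had 862, but 2535 with weights, 547 with the series and 373 to 1210 with 1 mouse left out. Hispidulin+AB against Hispidulin+Sham had 0, but 209 with weights, 51 with only the mice compared and 2 with no filter or with median-of-ratios scaling. Hispidulin+AB against DMSO+AB had 0, but 2 with no filter and up to 20 with 1 mouse left out. The cause was not tested.

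With 3 mice per group, 1 mouse sets a group's mean. The tests used 1 spread for all groups, and the 2 high mice widened it for these genes. Read depth is unknown, so the error of low values such as those of Ifit1 cannot be given. The build of the table is not named, so the promoters were matched by symbol, and the letters searched are 1 simple form of the element.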

Other observations

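Genes outside the member and pathway lists that were also at least 2-fold above the median in both high mice numbered 45, and the ones named here were chosen after their values were seen and do not stand for the whole. Among them were further interferon-inducible genes, Ifi213, an AIM2-like receptor gene, at 8.96 FPKM in DMSO+Sham 3 and 7.71 in Hispidulin+AB 3 beside 0.29 to 1.12 in the other 10 mice, the GTPase gene Ifi47 at 13.7 and 8.70 beside 1.79 to 3.04, and Rnf213, a large ubiquitin ligase, at 14.3 and 9.90 beside 2.30 to 2.87. The peptide transporter Tap1, which serves MHC class I, was at 18.3 and 11.5 FPKM beside 4.05 to 7.77. For these genes the 2 mice lay above all others.

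Of the chemokine genes among the 45, Ccl7 was at 9.97 and 9.34 FPKM beside 0.31 to 6.42, and Ccl12 at 14.9 and 13.0 beside 0.77 to 7.49, whereas Ccl2, at 13.1 and 21.0, reached 17.5 FPKM in another mouse. Cxcl9, a target of interferon gamma, was at 18.6 FPKM in DMSO+Sham 3 and 2.92 in Hispidulin+AB 3 beside 0.65 to 1.85, and the T cell chemokine Ccl5 at 15.7 and 2.70 beside 0 to 2.22. The stress genes Hspa1a (83.8 and 337 FPKM) and Hspa1b (55.2 and 285 FPKM) were also among the 45, but other mice reached 321 and 261 FPKM. Of the 36 of these genes with a RefSeq promoter, 9 (25%) held GAAANNGAAA on either strand, beside 3.68% of the promoters of all genes tested.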
